A study of Mus musculus with 12 samples.

Results

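The genes of the translation initiation and elongation factors were followed in MIN6 cells. This mouse line from an insulinoma still secretes insulin and serves as a model of β-cells of the pancreas. They were chosen by name: every gene of the count files whose symbol starts with Eif1 to Eif6, Eef1 or Eef2, leaving out the kinases of eIF2 (Eif2ak), the eIF4E-binding proteins (Eif4ebp), pseudogenes and the Y-linked Eif2s3y. This gave 59 of 49315 genes, of which 57 passed the filter on low counts. Eif4e1b, at 0 reads in all 12 libraries, and Eif2c5, at 0 to 1 reads, did not pass.

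Total RNA was sequenced from 4 groups of 3 libraries each. The Rap group received amino acids again for 3 h in the presence of "Rap", the re-added group received amino acids again for 3 h, the starved group had none for 16 h, and the control group is labelled only as ctrl. All were labelled wild type cells of this single line, grown in DMEM with serum and glutamine. The labels do not spell out Rap or its dose, the medium without amino acids, or how long the cells of the Rap and re-added groups had been without amino acids. Nor do they state that the replicates are separate cultures, so every p-value reflects the spread between libraries only, and that spread may be technical.

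Initiation factors bring the small ribosomal subunit, the initiator methionyl-tRNA and the mRNA together at the start codon. The eIF4F complex binds the cap and unwinds the leader, eIF3 is the scaffold on the small subunit, eIF2 carries the initiator tRNA, and eIF2B recharges eIF2 with GTP. Elongation factors then deliver aminoacyl-tRNA (eEF1A, recharged by eEF1B) and move the ribosome along (eEF2). The kinase complex mTORC1, named in the title of the study, senses amino acids and controls these steps through the eIF4E-binding proteins, the S6 kinases and eEF2 kinase. Amino acid shortage is also sensed by a kinase that phosphorylates eIF2, and phosphorylated eIF2 inhibits eIF2B. β-cells, which make large amounts of insulin, are known to depend on control of eIF2 phosphorylation.

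The libraries held 18555958 to 25631056 counted reads. CPM (reads of a gene scaled to a common library total, with TMM factors) compares a gene between libraries, and TPM (deposited by the authors, scaled for exon length as well) is used wherever genes are compared with each other. Summed over 12 β-cell markers the libraries held 46249 to 50695 CPM in the Rap group, 42306 to 47707 CPM in the re-added group, 44042 to 46327 CPM in the starved group and 53704 to 70317 CPM in the control group, with 11 of the 12 markers at 1 CPM or more in all 3 libraries of each of the first 3 groups and 12 in the controls. Markers of other cells moved with the groups. Here and below, 3 values of a group are those of replicates 1, 2 and 3, and levels with Rap, on re-addition, in starvation and in the controls are those of the 4 groups. A sum over 29 genes of fibroblasts, leukocytes, endothelium and lung epithelium was 159, 156 and 145 CPM with Rap, 1162, 185 and 156 CPM on re-addition, 2575, 186 and 1200 CPM in starvation and 2636, 3151 and 3056 CPM in the controls. Of the 29 genes, 17 stood at 1 CPM or more in all Rap libraries, 18 in all re-added, 21 in all starved and 28 in all control libraries, and none was at 0 in all 3 libraries of a group. Their part in the results below was not tested. All comparisons but re-added against control were repeated between libraries of like marker level. These were starved replicate 1 against control, and starved replicate 2, re-added replicates 2 and 3 and the Rap libraries among themselves. The starved arm is then a single library, assumed to vary like the libraries of the other groups, so those fits hold less information than the full ones, and starved replicate 3 was not set against re-added replicate 1. Where the transcripts of these markers came from was not tested. In bulk RNA, fewer cells of a type and less RNA per cell cannot be told apart.

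Across the 57 tested genes, starvation was followed by a mixed pattern, re-addition of amino acids by higher levels of many initiation factors, and Rap by lower levels of several. In starved against control cells, 9 factor genes were higher and 18 lower in edgeR's quasi-likelihood test at an adjusted p under 0.05, with 24.3% of all 16844 tested genes higher and 14.6% lower. In re-added against starved cells, 25 were higher and 3 lower (18.4% of all tested genes higher, 18.8% lower). In Rap against re-added cells, 2 were higher and 13 lower (4.55% of all tested genes higher, 3.43% lower). The median log2 fold change of the 57 genes was -0.16 after starvation, 0.23 after re-addition and -0.19 with Rap in these 3 comparisons, beside 0.01, -0.06 and 0.00 over all tested genes. An F test over the 4 groups called 42 of the 57, with 71.9% of all tested genes called, a share close to that of these genes. The libraries of the 2 groups did not overlap for 27 of the 57 genes in starved against control and 35 in re-added against starved. In Rap against re-added they did not overlap for 41. Over all tested genes the shares without overlap were 50.1%, 50.6% and 38.9% in these 3 comparisons.

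**Figure D1:**
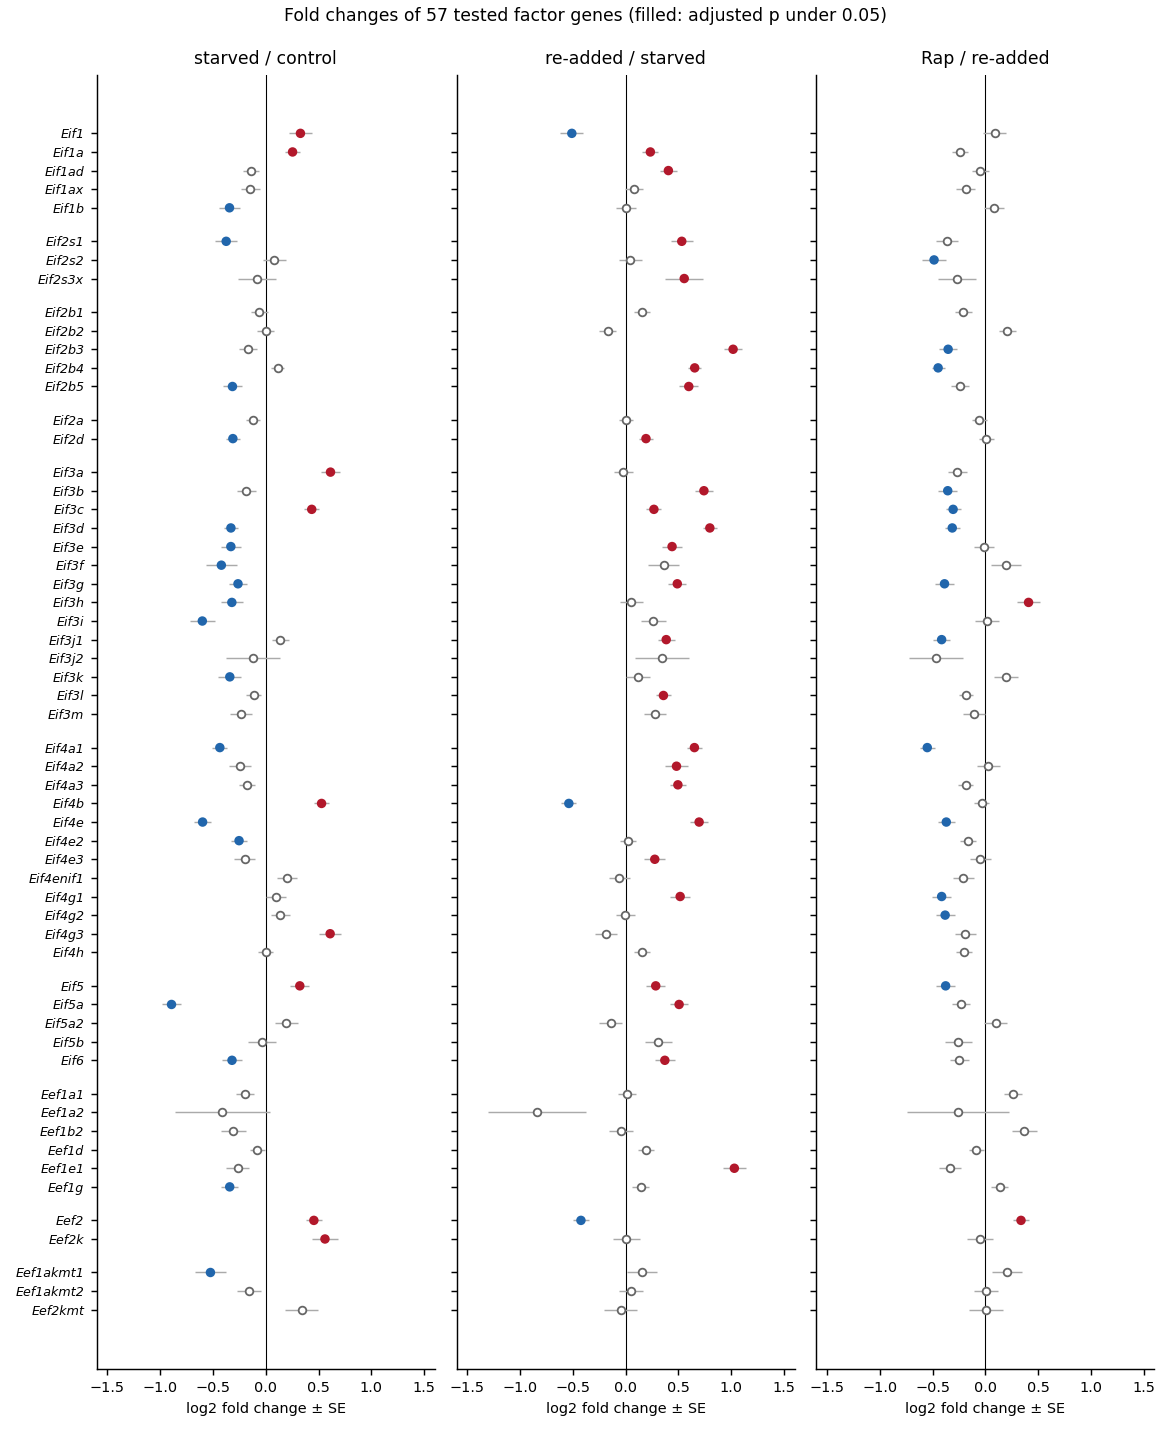
Log2 fold change (x axis, bars ± SE) of the 57 tested factor genes, a row each and grouped by complex, in the comparisons starved / control, re-added / starved and Rap / re-added. Filled points are past the adjusted p threshold of edgeR (red higher, blue lower): 9 and 18 in starved against control, 25 and 3 in re-added against starved, and 2 and 13 in Rap against re-added.

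The size of these changes was modest. The tested genes ran from -0.89 to 0.61 on the log2 scale in starved against control, from -0.84 to 1.03 in re-added against starved and from -0.55 to 0.41 in Rap against re-added. The split in starved against control moved with the scaling of libraries: upper-quartile factors gave 6 higher and 32 lower, RLE factors 8 and 28, and DESeq2 9 and 29. Over all tested genes these gave 2961 higher and 3679 lower, 3524 and 2973, and 3714 and 3010, beside 4101 and 2458 with TMM. Without re-added replicate 2, re-added replicate 3 or a Rap library, 3 or 4 members were lower in Rap against re-added, and 0 higher. The lower calls over all tested genes also went down in these fits, from 578 to between 245 and 268. Leaving out starved replicate 1 or 2 gave 20 lower members, with 859 and 850 lower calls over all tested genes.

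Among the parts of eIF4F, the cap-binding protein Eif4e and the helicase Eif4a1 fell in starved cells and rose in re-added cells, and both were lower with Rap. The scaffold Eif4g1 did not pass the test in starved against control, rose on re-addition and was lower with Rap. The helicase cofactor Eif4b moved the other way, up in starved cells and down on re-addition. Over the 12 tested genes of eIF4F and its helpers, 2 were higher and 3 lower in starved against control, 6 higher and 1 lower in re-added against starved, and 0 higher and 4 lower in Rap against re-added. Of all tested genes, 24.3% were higher and 14.6% lower, 18.4% and 18.8%, and 4.55% and 3.43%, in the same order.

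Eif4e stood at 145, 139 and 145 CPM with Rap and 187, 191 and 177 CPM on re-addition. It stood at 108, 124 and 109.8 CPM in starvation and 188, 175 and 155 CPM in the controls. The starved libraries lay below those of every other group, and the Rap libraries lay between the starved and the re-added ones. Its log2 fold change was -0.60 ± 0.08 (adjusted p = 0.000198) in starved against control, 0.70 ± 0.08 (adjusted p = 5.49e-05) in re-added against starved and -0.37 ± 0.08 (adjusted p = 0.0169) in Rap against re-added. Eif4a1 had 476, 461 and 448 CPM with Rap and 660.0, 702 and 668 CPM on re-addition. Its levels were 411, 448 and 434 CPM in starvation and 603, 612 and 532 CPM in the controls. Each Rap and each starved library lay below each re-added and each control library. The change of Eif4a1 on the log2 scale was -0.44 ± 0.07 (adjusted p = 0.000553) in starved against control, 0.65 ± 0.07 (adjusted p = 2.69e-05) in re-added against starved and -0.55 ± 0.07 (adjusted p = 0.00065) in Rap against re-added. These calls for Eif4a1 passed in all 23 alternative settings of each comparison.

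Eif4g1 was measured at 548, 559 and 522 CPM with Rap and 698, 709.6 and 764 CPM on re-addition. Its starved and control levels were 466, 547 and 505 CPM in starvation and 463, 422 and 536 CPM in the controls. Re-added libraries lay above all others, and the starved and control libraries overlapped. The test gave 0.10 ± 0.09 (adjusted p = 0.411) in starved against control, 0.52 ± 0.09 (adjusted p = 0.000975) in re-added against starved and -0.41 ± 0.09 (adjusted p = 0.0165) in Rap against re-added. Eif4g3, another scaffold gene, had 127, 130.1 and 126 CPM with Rap and 143, 142 and 153 CPM on re-addition. For the same gene the counts gave 155, 169 and 173 CPM in starvation and 109, 90.7 and 127 CPM in the controls. Here the starved libraries were the highest and the control libraries the lowest, with control replicate 3 reaching the Rap level. Eif4g3 changed by 0.61 ± 0.10 (adjusted p = 0.000666) in starved against control, -0.19 ± 0.10 (adjusted p = 0.166) in re-added against starved and -0.19 ± 0.10 (adjusted p = 0.293) in Rap against re-added. Eif4g2, a scaffold that lacks the binding site for eIF4E, was lower with Rap (-0.38 ± 0.09, adjusted p = 0.022) and had 0.14 (adjusted p = 0.241) in starved against control and -0.00 (adjusted p = 0.977) in re-added against starved.

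Eif4b, which helps the helicase and is a known substrate of the S6 kinases, had 288, 288 and 272 CPM with Rap and 288, 288 and 294 CPM on re-addition. Its other groups held 390.5, 457 and 417 CPM in starvation and 289.6, 280.2 and 307 CPM in the controls. The 3 starved libraries stood apart above the remaining 9, whose range was narrow. Its log2 fold changes were 0.53 ± 0.07 (adjusted p = 0.000152) in starved against control, -0.54 ± 0.07 (adjusted p = 0.000104) in re-added against starved and -0.04 ± 0.07 (adjusted p = 0.795) in Rap against re-added. The first 2 passed in all 23 alternative settings. Eif4a2, the other cytoplasmic eIF4A, was measured at 528, 517 and 567 CPM with Rap and 535, 530.5 and 515 CPM on re-addition. Its other libraries had 362, 428 and 342 CPM in starvation and 495, 469.8 and 375 CPM in the controls. The re-added libraries lay above the starved ones, while the Rap and re-added libraries overlapped, unlike those of Eif4a1. Eif4a2 gave -0.24 ± 0.11 (adjusted p = 0.0926) in starved against control, 0.48 ± 0.11 (adjusted p = 0.00408) in re-added against starved and 0.03 ± 0.11 (adjusted p = 0.901) in Rap against re-added. Of the other genes, the exon junction helicase Eif4a3 and the cap-binding homologue Eif4e3 rose on re-addition (0.50, adjusted p = 0.000316 for Eif4a3 and 0.28, adjusted p = 0.045 for Eif4e3).

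Eif4e2, a cap-binding protein known to repress translation, had 56.4, 53.02 and 56.4 CPM with Rap and 63.2, 64.3 and 58.2 CPM on re-addition. It had 55.2, 62.7 and 64.8 CPM in starvation and 73.2, 76.1 and 68.3 CPM in the controls. Its control libraries were the highest. Eif4e2 fell in starved cells (-0.25 ± 0.08, adjusted p = 0.0213) and did not pass in the other comparisons (0.02, adjusted p = 0.833 on re-addition and -0.16, adjusted p = 0.242 with Rap). That fall passed in 16 of 23 alternative settings (adjusted p from 0.000361 to 0.151), and leaving out a library ended it at log2 values of -0.24 without control replicate 1 and -0.22 without control replicate 2. Eif4h, Eif4enif1 and Eif4g2 were the members of this set with no call in either starved against control or re-added against starved.

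**Figure D2:**
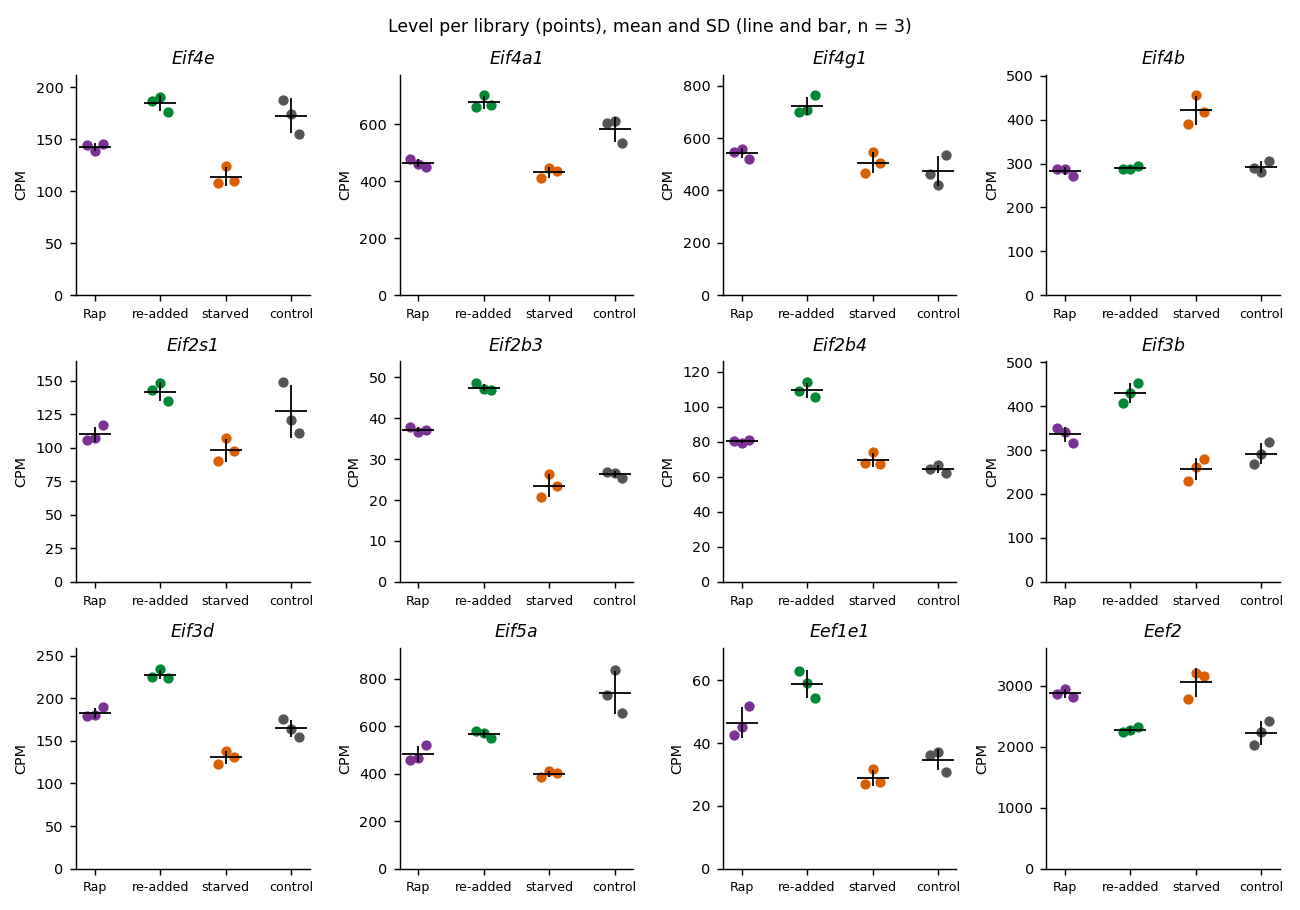
Level in CPM (y axis, from 0) of 12 factor genes in the Rap, re-added, starved and control libraries, a point for each library, with the group mean and SD (line and bar, n = 3). Eif4a1, Eif3d and Eif2b4 are highest in the re-added libraries, and Eif4b is highest in the starved libraries, at 390.5 to 457 CPM.

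Promoters were read for the members because several of them moved in the same direction. RefSeq promoter windows (build GRCm38.p6, 250 bases before to 50 after a gene's start) matched 46 of the 59 members. CACGTG, the core of the E-box bound by MYC and by the TFEB family (a palindrome, so both strands read alike), was found in 12 of the 46 (26.1%) and in 11.1% of the 12089 tested genes with a window. Counted per window, since a gene can have several, it was in 23.3% of 60 member windows and in 9.28% of 15449 windows of all tested genes. TGATGCAA, the amino acid response element bound by ATF4, was searched on both strands and found in 0 of 46 members and in 0.720% of tested genes. The lines below show the motif, in capitals, with 12 bases on each side in 5 genes that moved in different ways, each read 5′ to 3′ on the gene's strand. The positions are of the motif's first base relative to the RefSeq start: 64 bases before it for Eif4e (chr3:138527192-138527221, plus strand), 54 for Eif4g1 (chr16:20672661-20672690, plus strand), 189 for Eif4a1 (chr11:69672595-69672624, minus strand), 74 for Eif5a (chr11:69921443-69921472, minus strand) and 43 for Eef2 (chr10:81176576-81176605, plus strand).
Eif4e: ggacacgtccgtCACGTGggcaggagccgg
Eif4g1: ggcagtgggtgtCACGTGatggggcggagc
Eif4a1: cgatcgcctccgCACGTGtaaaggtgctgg
Eif5a: aaggggcggggtCACGTGtgtgcgtcatcc
Eef2: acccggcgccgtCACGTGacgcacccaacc

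The window of Eif4e overlaps an annotated exon of Eif4e, and those of the other 4 genes lie outside annotated exons of their own gene. Exons of neighbouring genes were not checked. Genes with the motif did not share a direction. On re-addition, Eif4e, Eif4g1, Eif4a1 and Eif5a were called higher, Eef2 was called lower, and Eef2k, Eif1b, Eif3a, Eif3f, Eif3k, Eif4h and Eif5a2 were not called. A match of these letters is a description of the sequence and shows no binding.

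The factors that set the start codon behaved differently from each other. Of the 5 genes of eIF1 and eIF1A, 2 were higher and 1 lower in starved against control, 2 higher and 1 lower in re-added against starved, and none was called in Rap against re-added. The shares of all tested genes in these comparisons were 24.3% higher and 14.6% lower, 18.4% and 18.8%, and 4.55% and 3.43%. Eif1, which guards start codon selection, stood at 414, 391 and 417 CPM with Rap and 371, 409.6 and 370.4 CPM on re-addition. In the other groups it stood at 530.4, 583 and 524 CPM in starvation and 428, 516 and 360.3 CPM in the controls. The starved libraries were the highest. Eif1 changed by 0.33 ± 0.11 (adjusted p = 0.0331) in starved against control, -0.51 ± 0.11 (adjusted p = 0.00346) in re-added against starved and 0.09 ± 0.11 (adjusted p = 0.681) in Rap against re-added. The rise in starved cells passed in 13 of 23 alternative settings (adjusted p from 0.000649 to 0.234), and leaving out a library ended it at log2 values of 0.32 without control replicate 1, 0.21 without control replicate 3, 0.28 without starved replicate 1, 0.28 without starved replicate 2 and 0.31 without starved replicate 3. The fall on re-addition passed in all 23.

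Its paralog Eif1b had 44.9, 47.8 and 44.7 CPM with Rap and 44.1, 43.5 and 42.3 CPM on re-addition. The remaining groups had 38.5, 43.95 and 47.2 CPM in starvation and 53.2, 62.6 and 48.8 CPM in the controls. All starved libraries were below all control libraries, and the re-added libraries overlapped with the starved ones. The log2 fold change of Eif1b was -0.34 ± 0.10 (adjusted p = 0.0158) in starved against control, 0.00 ± 0.10 (adjusted p = 0.98) in re-added against starved and 0.08 ± 0.10 (adjusted p = 0.67) in Rap against re-added. The first passed in 21 of 23 alternative settings (adjusted p from 0.000487 to 0.0584), and leaving out a library ended it at log2 values of -0.24 without control replicate 2.

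Eif1a, which works with eIF1 in scanning, was at 92.1, 97.2 and 98.03 CPM with Rap and 116, 115 and 109 CPM on re-addition. It was at 90.8, 106 and 92.1 CPM in starvation and 85.3, 81.3 and 75.6 CPM in the controls. The control libraries were the lowest and the re-added libraries the highest. The values were 0.25 ± 0.07 (adjusted p = 0.0184) in starved against control, 0.23 ± 0.07 (adjusted p = 0.0273) in re-added against starved and -0.24 ± 0.07 (adjusted p = 0.0736) in Rap against re-added. The rise in starved cells passed in 17 of 23 alternative settings (adjusted p from 0.000859 to 0.234), and leaving out a library ended it at log2 values of 0.21 without control replicate 3 and 0.18 without starved replicate 2. The rise on re-addition passed in 20 of 23 alternative settings (adjusted p from 0.00193 to 0.493), and leaving out a library ended it at log2 values of 0.22 without re-added replicate 2. Its X-linked copy Eif1ax was at 93.8, 100.2 and 104 CPM with Rap and 116, 114 and 109 CPM on re-addition, and at 98.6, 117 and 106 CPM in starvation and 133, 113 and 109 CPM in the controls. No comparison of Eif1ax passed: -0.15 ± 0.09 (adjusted p = 0.204) in starved against control, 0.08 ± 0.09 (adjusted p = 0.497) in re-added against starved and -0.19 ± 0.09 (adjusted p = 0.239) in Rap against re-added. Eif1ad, a nuclear protein with an eIF1A domain, had 73.6, 75.7 and 71.4 CPM with Rap and 78.4, 72.6 and 77.2 CPM on re-addition. Starved and control levels were 57.4, 59.2 and 55.8 CPM in starvation and 61.1, 71.3 and 57.6 CPM in the controls. Its re-added and Rap libraries overlapped and lay above those of the starved and control groups. Only the re-added against starved value of 0.41 ± 0.08 (adjusted p = 0.00174) passed among the 3 main comparisons.

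eIF2 is a complex of an α subunit (Eif2s1), whose phosphorylation is the switch of the integrated stress response, a β subunit (Eif2s2) and a GTP-binding γ subunit (Eif2s3x). Eif2s1 stood at 106, 107 and 117 CPM with Rap and 143, 148 and 135 CPM on re-addition. It stood at 90.2, 107 and 97.6 CPM in starvation and 149, 121 and 111 CPM in the controls. The starved libraries were lower than the control libraries and lower than the re-added ones. Eif2s1 fell in starved cells (-0.37 ± 0.10, adjusted p = 0.0137) and rose on re-addition (0.53 ± 0.10, adjusted p = 0.00187), and had -0.37 (adjusted p = 0.0528) with Rap, where the 3 Rap libraries lay below the 3 re-added ones. That lower value with Rap passed in 15 of 23 alternative settings (adjusted p from 0.000724 to 0.177). The fall in starved cells passed in 18 of 23 alternative settings (adjusted p from 0.000183 to 0.114), and leaving out a library ended it at log2 values of -0.24 without control replicate 1.

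Eif2s2 was measured at 145, 155 and 152 CPM with Rap and 219.5, 209.9 and 205 CPM on re-addition. Its starved and control values were 198, 231 and 186 CPM in starvation and 206, 216 and 160.1 CPM in the controls. Rap libraries were the lowest, below every library of the other groups. Eif2s2 was lower with Rap against re-added (-0.49 ± 0.11, adjusted p = 0.0182) and against starved (-0.44 ± 0.11, adjusted p = 0.00821), with 0.08 (adjusted p = 0.572) in starved against control and 0.05 (adjusted p = 0.765) in re-added against starved. Eif2s3x rose on re-addition (0.56 ± 0.18, adjusted p = 0.0315). In TPM the 3 subunits were of like level, with means over the 12 libraries of 96.9 for Eif2s1, 78.02 for Eif2s2 and 86.8 for Eif2s3x.

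Of the 5 subunits of eIF2B, the exchange factor of eIF2, Eif2b3, Eif2b4 and Eif2b5 rose on re-addition and Eif2b1 and Eif2b2 did not pass. In that comparison 18.4% of all tested genes were called higher. Eif2b3, of the catalytic subcomplex, had 37.8, 36.5 and 37.2 CPM with Rap and 48.5, 47.02 and 46.9 CPM on re-addition. It had 20.7, 26.4 and 23.3 CPM in starvation and 26.9, 26.6 and 25.5 CPM in the controls. Each group but starved and control stood apart from the others. The log2 fold change of Eif2b3 was -0.17 ± 0.09 (adjusted p = 0.137) in starved against control, 1.02 ± 0.09 (adjusted p = 4.04e-06) in re-added against starved and -0.35 ± 0.08 (adjusted p = 0.0235) in Rap against re-added. Eif2b4, of the regulatory subcomplex, was at 80.3, 79.4 and 80.9 CPM with Rap and 109, 114 and 105 CPM on re-addition. Its starved and control libraries were at 67.6, 73.95 and 67.1 CPM in starvation and 64.2, 66.6 and 61.96 CPM in the controls. Again the re-added libraries were above all others. Eif2b4 showed 0.11 ± 0.06 (adjusted p = 0.167) in starved against control, 0.65 ± 0.06 (adjusted p = 9.5e-06) in re-added against starved and -0.45 ± 0.06 (adjusted p = 0.00102) in Rap against re-added. Its rise on re-addition and its lower level with Rap passed in all 23 alternative settings of each comparison.

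Eif2b5, the catalytic subunit, fell in starved cells (-0.32 ± 0.09, adjusted p = 0.0141), rose on re-addition (0.60 ± 0.09, adjusted p = 0.000262) and had -0.24 (adjusted p = 0.128) with Rap. Eif2b2 had -0.17 (adjusted p = 0.125) on re-addition and 0.21 (adjusted p = 0.156) with Rap, both of the opposite sign to the other subunits, and Eif2b1 had 0.16 (adjusted p = 0.145) and -0.21 (adjusted p = 0.142). In TPM the subunits differed in level, from a mean of 14.2 over the 12 libraries for Eif2b3 to 123 for Eif2b2. Eif2b4 shares its locus with Snx17 on the other strand.

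Eif2a and Eif2d are factors that can bring tRNA to the ribosome without eIF2. Eif2d was at 65.4, 65.6 and 66.4 CPM with Rap and 69.02, 63.98 and 63.1 CPM on re-addition. It was at 53.2, 60.2 and 58.3 CPM in starvation and 73.1, 73.3 and 66.6 CPM in the controls, without overlap between these groups. Eif2d fell in starved cells (-0.31 ± 0.07, adjusted p = 0.00396) in all 23 alternative settings. It rose on re-addition (0.19 ± 0.07, adjusted p = 0.0462), a call that passed in 8 of 23 alternative settings (adjusted p from 0.00708 to 0.495), and leaving out a library ended it at log2 values of 0.19 without control replicate 1, 0.19 without starved replicate 1, 0.16 without re-added replicate 1, 0.21 without re-added replicate 2, 0.22 without re-added replicate 3, 0.19 without Rap replicate 1, 0.19 without Rap replicate 2 and 0.19 without Rap replicate 3. With Rap it had 0.01 (adjusted p = 0.951). Eif2a stood at 56.2, 59.2 and 59.5 CPM with Rap and 61.7, 61.1 and 59.6 CPM on re-addition. It stood close to that elsewhere, at 57.8, 65.3 and 58.9 CPM in starvation and 70.8, 63.9 and 63.1 CPM in the controls. No comparison of Eif2a passed, with -0.12 ± 0.07 (adjusted p = 0.19) in starved against control, 0.00 ± 0.07 (adjusted p = 0.972) in re-added against starved and -0.06 ± 0.07 (adjusted p = 0.655) in Rap against re-added.

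eIF3 was split in starved cells and rose in part on re-addition. Of its 14 genes, 2 were higher (Eif3a, Eif3c) and 7 lower (Eif3d, Eif3e, Eif3f, Eif3g, Eif3h, Eif3i, Eif3k) in starved against control. On re-addition 7 were higher (Eif3b, Eif3c, Eif3d, Eif3e, Eif3g, Eif3j1, Eif3l) and none was lower. With Rap 5 were lower than in re-added cells (Eif3b, Eif3c, Eif3d, Eif3g, Eif3j1) and Eif3h was higher. Of all tested genes, 24.3% were higher and 14.6% lower, 18.4% and 18.8%, and 4.55% and 3.43%, in the same order of comparisons. In TPM the 12 genes other than Eif3j1 and Eif3j2 had means over the 12 libraries from 108 for Eif3m to 634 for Eif3h.

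**Figure D3:**
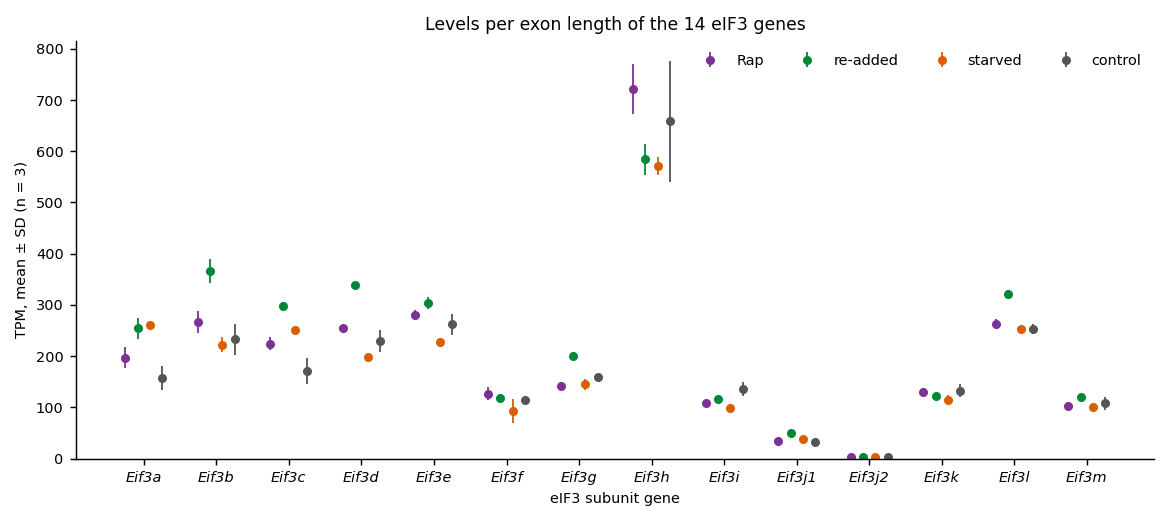
Level in TPM (y axis, mean ± SD, n = 3) of the 14 eIF3 genes, with the Rap, re-added, starved and control groups side by side for each gene. Eif3h is the highest, at 721 TPM with Rap and 585 TPM in re-added cells, and Eif3d and Eif3b are highest in the re-added group, at 339 and 366 TPM.

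Eif3a, the largest core subunit, stood at 396, 405 and 349.6 CPM with Rap and 443, 446 and 496 CPM on re-addition. It stood at 431, 502 and 473 CPM in starvation and 293, 289.7 and 336 CPM in the controls. Control libraries were the lowest, and those of the starved and re-added groups overlapped. Eif3a had 0.61 ± 0.09 (adjusted p = 0.0003) in starved against control, -0.02 ± 0.09 (adjusted p = 0.874) in re-added against starved and -0.27 ± 0.09 (adjusted p = 0.0967) in Rap against re-added. Eif3c, another core subunit, was at 304, 297 and 287 CPM with Rap and 352, 381 and 366 CPM on re-addition. Its starved and control libraries held 289.5, 318 and 305 CPM in starvation and 229, 207 and 239 CPM in the controls. Each starved library was above each control library, and each re-added library above each starved library. The values for Eif3c were 0.44 ± 0.07 (adjusted p = 0.000588) in starved against control, 0.27 ± 0.07 (adjusted p = 0.011) in re-added against starved and -0.31 ± 0.07 (adjusted p = 0.0208) in Rap against re-added. The rise on re-addition passed in 18 of 23 alternative settings (adjusted p from 0.000158 to 0.126), and leaving out a library ended it at log2 values of 0.24 without re-added replicate 2.

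Eif3b, the core subunit with an RNA-recognition motif, had 349.9, 341 and 316 CPM with Rap and 406, 430.4 and 453 CPM on re-addition. It also had 231, 261 and 279.7 CPM in starvation and 269, 289.8 and 317 CPM in the controls. The re-added libraries were above all others. Eif3b changed by -0.18 ± 0.09 (adjusted p = 0.122) in starved against control, 0.74 ± 0.09 (adjusted p = 5.83e-05) in re-added against starved and -0.36 ± 0.09 (adjusted p = 0.0293) in Rap against re-added. Eif3d, a subunit that can itself bind the cap of some mRNAs, was measured at 179, 180.1 and 189.8 CPM with Rap and 225, 234 and 223 CPM on re-addition. The starved libraries were the lowest of the 4 groups, with 123, 139 and 131 CPM in starvation and 175, 164 and 155 CPM in the controls. The tests for Eif3d gave -0.33 ± 0.07 (adjusted p = 0.00272) in starved against control, 0.80 ± 0.07 (adjusted p = 5.03e-06) in re-added against starved and -0.31 ± 0.07 (adjusted p = 0.0153) in Rap against re-added. The rise of Eif3d and Eif3b on re-addition passed in all 23 alternative settings, and so did the fall of Eif3d in starved cells.

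Eif3i, a WD-repeat subunit, had 147, 143 and 165 CPM with Rap and 156, 151 and 144 CPM on re-addition. It had 112, 134 and 129 CPM in starvation and 189, 223 and 158 CPM in the controls. All starved libraries lay below all control libraries. Eif3i fell in starved cells by 0.60 ± 0.12 (adjusted p = 0.0017) on the log2 scale, in all 23 alternative settings, and had 0.26 (adjusted p = 0.0961) on re-addition and 0.02 (adjusted p = 0.954) with Rap. Eif3h, of the outer subcomplex, stood at 313, 332 and 378 CPM with Rap and 268, 264 and 239.6 CPM on re-addition. Its other libraries stood at 233, 255 and 255 CPM in starvation and 361, 289 and 278 CPM in the controls. The Rap libraries were above the re-added ones and overlapped with the control libraries. Eif3h showed -0.32 ± 0.11 (adjusted p = 0.0303) in starved against control, 0.05 ± 0.11 (adjusted p = 0.702) in re-added against starved and 0.41 ± 0.11 (adjusted p = 0.0358) in Rap against re-added. The fall in starved cells passed in 15 of 23 alternative settings (adjusted p from 0.00105 to 0.267), and leaving out a library ended it at log2 values of -0.19 without control replicate 1 and -0.34 without starved replicate 2. The rise with Rap passed in 9 of 23 alternative settings (adjusted p from 0.00185 to 0.189), and its call was lost on leaving out any starved, re-added or Rap library, at log2 values of 0.38 without starved replicate 1, 0.38 without starved replicate 2, 0.38 without starved replicate 3, 0.42 without re-added replicate 1, 0.43 without re-added replicate 2, 0.36 without re-added replicate 3, 0.47 without Rap replicate 1, 0.43 without Rap replicate 2 and 0.33 without Rap replicate 3.

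Eif3j1 encodes a loosely bound subunit, and Eif3j2 is a near copy whose transcript shares a run of 1107 bases with it, so reads of the 2 genes could have been split between them. Eif3j1 was at 78.1, 78.5 and 70.9 CPM with Rap and 103, 101 and 99.5 CPM on re-addition. In the remaining libraries it was at 74.2, 86.1 and 72.1 CPM in starvation and 75.7, 68.6 and 66.7 CPM in the controls. The re-added libraries were the highest, and starved and control overlapped. Eif3j1 gave 0.14 ± 0.08 (adjusted p = 0.19) in starved against control, 0.38 ± 0.08 (adjusted p = 0.00274) in re-added against starved and -0.41 ± 0.08 (adjusted p = 0.00819) in Rap against re-added, and its lower level with Rap passed in all 23 alternative settings. Eif3j2 had 1.84, 2.15 and 2.02 CPM with Rap and 2.77, 2.48 and 3.07 CPM on re-addition. It had 2.64, 2.14 and 1.75 CPM in starvation and 2.99, 1.57 and 2.51 CPM in the controls. The Rap libraries lay below the re-added ones, and the starved libraries overlapped with those of the control and re-added groups. No comparison of Eif3j2 passed, with -0.12 ± 0.26 (adjusted p = 0.723) in starved against control, 0.35 ± 0.26 (adjusted p = 0.296) in re-added against starved and -0.47 ± 0.26 (adjusted p = 0.308) in Rap against re-added. Eif3j1 shares its locus with Spg11 on the other strand.

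Among the 5 genes of eIF5, eIF5A, eIF5B and eIF6, Eif5a stood out with the largest fall of all tested members in starved cells. Eif5a carries the hypusine residue and helps the ribosome through difficult sequences and termination. Eif5a stood at 459, 468 and 522 CPM with Rap and 581, 570.4 and 552 CPM on re-addition. It stood at 385, 410.2 and 404 CPM in starvation and 731, 837 and 657 CPM in the controls. The 3 starved libraries were below all others, and the re-added libraries were below the control ones. Eif5a showed -0.89 ± 0.09 (adjusted p = 1.94e-05) in starved against control, 0.51 ± 0.09 (adjusted p = 0.000807) in re-added against starved and -0.23 ± 0.09 (adjusted p = 0.139) in Rap against re-added. The re-added level stayed below control (-0.39 ± 0.09, adjusted p = 0.00473). The part of other-cell RNA in the fall of Eif5a was not tested. Its paralog Eif5a2 was measured at 24.7, 23.1 and 22.2 CPM with Rap and 21.01, 21.2 and 23.2 CPM on re-addition. Starved and control libraries had 23.1, 26.4 and 22.9 CPM in starvation and 22.9, 17.5 and 22.7 CPM in the controls. The groups compared overlapped, and Eif5a2 had 0.19 ± 0.11 (adjusted p = 0.179) in starved against control, -0.14 ± 0.11 (adjusted p = 0.32) in re-added against starved and 0.10 ± 0.11 (adjusted p = 0.65) in Rap against re-added.

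Eif5, which makes eIF2 hydrolyse its GTP at the start codon, was at 266, 268 and 263 CPM with Rap and 337, 351 and 347 CPM on re-addition. It was at 265, 312 and 272 CPM in starvation and 257, 206 and 216 CPM in the controls. The starved libraries lay above the control libraries and below the re-added ones. Its log2 fold change was 0.32 ± 0.09 (adjusted p = 0.0124) in starved against control, 0.29 ± 0.09 (adjusted p = 0.0238) in re-added against starved and -0.38 ± 0.09 (adjusted p = 0.0216) in Rap against re-added. The rise in starved cells passed in 18 of 23 alternative settings (adjusted p from 0.00265 to 0.2), and leaving out a library ended it at log2 values of 0.25 without starved replicate 2. The rise on re-addition passed in 16 of 23 alternative settings (adjusted p from 0.00147 to 0.29), and leaving out a library ended it at log2 values of 0.27 without re-added replicate 2 and 0.28 without re-added replicate 3. Eif6, which keeps the large subunit from joining too early, fell in starved cells (-0.32 ± 0.09, adjusted p = 0.0165) and rose on re-addition (0.37 ± 0.09, adjusted p = 0.00781). Eif5b, the GTPase of subunit joining, was not called in any comparison, with values of 0.31 (adjusted p = 0.0811) on re-addition and -0.26 (adjusted p = 0.273) with Rap.

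Of the 6 eEF1 genes 1 was called in starved against control (Eef1g, lower), 1 in re-added against starved (Eef1e1, higher) and 0 in Rap against re-added. The shares of all tested genes in these comparisons were 24.3% higher and 14.6% lower, 18.4% and 18.8%, and 4.55% and 3.43%. Eef1a1, which carries aminoacyl-tRNA to the ribosome and had the highest TPM of all members, stood at 4147, 4492 and 4469 CPM with Rap and 3749, 3736 and 3482 CPM on re-addition. It stood at 3454, 3863 and 3575 CPM in starvation and 4662, 4134 and 3696 CPM in the controls. The Rap libraries lay above the re-added and starved libraries, and the starved libraries overlapped with the control ones. Eef1a1 had -0.20 ± 0.08 (adjusted p = 0.0831) in starved against control, 0.01 ± 0.08 (adjusted p = 0.937) in re-added against starved and 0.26 ± 0.08 (adjusted p = 0.09) in Rap against re-added. Against starved cells the Rap value passed (0.27 ± 0.08, adjusted p = 0.0241). Eef1a2, the form of neurons and muscle, was near the detection limit, at 0.60, 1.71 and 1.22 CPM with Rap and 1.99, 1.52 and 0.72 CPM on re-addition. It was at 3.99, 1.98 and 1.58 CPM in starvation and 2.57, 3.19 and 4.34 CPM in the controls, and had -0.41 ± 0.45 (adjusted p = 0.475) in starved against control, -0.84 ± 0.47 (adjusted p = 0.175) in re-added against starved and -0.26 ± 0.48 (adjusted p = 0.79) in Rap against re-added.

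Eef1g, a subunit of the exchange factor of eEF1A, was measured at 598, 609 and 627 CPM with Rap and 576, 558 and 539 CPM on re-addition. Its starved and control libraries did not overlap, with 473, 533 and 510.4 CPM in starvation and 613, 719 and 589 CPM in the controls. Eef1g fell in starved cells (-0.34 ± 0.08, adjusted p = 0.0058) in all 23 alternative settings. It had 0.14 (adjusted p = 0.188) on re-addition and 0.13 (adjusted p = 0.354) with Rap. Eef1b2, another exchange subunit, had -0.31 (adjusted p = 0.0549), -0.04 (adjusted p = 0.783) and 0.37 (adjusted p = 0.0816) in the same 3 comparisons, and Eef1d had -0.08 (adjusted p = 0.393), 0.19 (adjusted p = 0.0573) and -0.08 (adjusted p = 0.526). Eef1e1, a small protein of the multi-aminoacyl-tRNA synthetase complex, had 42.5, 45.1 and 51.9 CPM with Rap and 62.99, 59.2 and 54.4 CPM on re-addition. It had 27.1, 31.8 and 27.6 CPM in starvation and 36.2, 37.04 and 30.8 CPM in the controls. Its re-added libraries were the highest and its starved libraries overlapped with the control ones. Eef1e1 rose on re-addition by 1.03 ± 0.11 (adjusted p = 1.8e-05) on the log2 scale, the largest change of any tested member in that comparison, and passed in all 23 alternative settings. In starved against control it had -0.27 (adjusted p = 0.0644) and with Rap -0.34 (adjusted p = 0.0722).

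Eef2, the translocase, was higher in starved and in Rap cells than in control and re-added cells. It stood at 2859, 2951 and 2812 CPM with Rap and 2233, 2266 and 2328 CPM on re-addition. It stood at 2787, 3207 and 3159 CPM in starvation and 2019.7, 2237 and 2419 CPM in the controls. Starved and Rap libraries overlapped at the top, and re-added and control libraries overlapped below them. The log2 fold change of Eef2 was 0.46 ± 0.08 (adjusted p = 0.00074) in starved against control, -0.42 ± 0.08 (adjusted p = 0.00115) in re-added against starved and 0.34 ± 0.08 (adjusted p = 0.0193) in Rap against re-added. The first and second calls passed in all 23 alternative settings. The rise with Rap passed in 12 of 23 alternative settings (adjusted p from 0.000178 to 0.243) and leaving out a library ended it at log2 values of 0.30 without re-added replicate 1, 0.33 without re-added replicate 2, 0.35 without re-added replicate 3, 0.34 without Rap replicate 1, 0.32 without Rap replicate 2 and 0.35 without Rap replicate 3. Eef2k, the kinase that inhibits eEF2, was at 12.3, 11.9 and 11.7 CPM with Rap and 12.6, 12.1 and 12.5 CPM on re-addition. Its levels were 12.6, 12.8 and 11.7 CPM in starvation and 7.10, 8.003 and 10.1 CPM in the controls. Control libraries were the lowest and the other 3 groups overlapped. Eef2k rose in starved cells (0.56 ± 0.13, adjusted p = 0.00429), with 0.01 (adjusted p = 0.97) on re-addition and -0.05 (adjusted p = 0.842) with Rap. The rise passed in 22 of 23 alternative settings (adjusted p from 0.000495 to 0.0597) and was lost with only the 6 libraries compared, at a log2 value of 0.53.

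Of the 3 methyltransferases of elongation factors, Eef1akmt1 fell in starved cells, where 14.6% of all tested genes were lower, and the others were not called. Eef1akmt1, which methylates eEF1A, had 18.5, 15.4 and 19.2 CPM with Rap and 15.1, 16.8 and 14.2 CPM on re-addition. It had 13.1, 14.8 and 13.5 CPM in starvation and 19.9, 23.8 and 15.9 CPM in the controls. All starved libraries were below all control libraries. The values were -0.52 ± 0.14 (adjusted p = 0.0124) in starved against control, 0.15 ± 0.14 (adjusted p = 0.409) in re-added against starved and 0.21 ± 0.14 (adjusted p = 0.42) in Rap against re-added. The fall passed in 22 of 23 alternative settings (adjusted p from 0.001 to 0.0918) and was lost between libraries of like marker level, at a log2 value of -0.58 with 1 starved library. Eef2kmt, which methylates eEF2, stood at 18.2, 17.9 and 20.8 CPM with Rap and 19.3, 19.9 and 17.6 CPM on re-addition. Its other libraries, at 17.8, 21.8 and 19.02 CPM in starvation and 19.04, 15.7 and 11.4 CPM in the controls, overlapped with these, and it had 0.34 ± 0.16 (adjusted p = 0.108) in starved against control, -0.05 ± 0.16 (adjusted p = 0.84) in re-added against starved and 0.01 ± 0.16 (adjusted p = 0.988) in Rap against re-added.

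The share of each gene in the summed TPM of a paralog pair showed where copies of a factor parted. Shares are given as a description, with exact two-sided permutation tests over libraries that cannot go below p = 0.1 with 3 against 3. Eif4a1 held 52.6%, 52.4% and 49.3% of the Eif4a1 and Eif4a2 sum in the Rap libraries, against 60.3%, 62.0% and 61.5% in the re-added libraries. In the starved libraries the share was 58.3%, 56.3% and 61.0%, and in the control libraries 60.0%, 61.6% and 63.6%. The Rap libraries stood apart below all 9 others (Rap against re-added: exact permutation p = 0.1). The Eif4e share of Eif4e and Eif4e2 was 76.2%, 76.5% and 76.3% with Rap and 78.7%, 78.8% and 79.1% on re-addition. It was 70.9%, 71.2% and 67.9% in starved and 76.2%, 74.1% and 73.9% in control libraries. Starved libraries had the lowest and re-added libraries the highest Eif4e share (exact permutation p = 0.1 between them).

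Eif4g1 made up 86.9%, 86.8% and 86.3% of Eif4g1 and Eif4g3 in the Rap libraries and 88.2%, 88.4% and 88.5% in the re-added ones. The starved libraries had 82.1%, 83.2% and 81.7%, against 86.7%, 87.7% and 86.6% in the control libraries. The starved libraries had the lowest Eif4g1 share of the 4 groups. For Eif1 and Eif1b the Eif1 share was 83.2%, 81.4% and 83.4% with Rap, 81.8%, 83.5% and 82.4% on re-addition, 88.1%, 87.7% and 85.6% in starved and 81.2%, 81.5% and 79.8% in control libraries. Here starvation had the highest share. Eif1a held 64.3%, 63.9% and 63.3% of Eif1a and Eif1ax with Rap, 64.5%, 64.8% and 64.7% on re-addition, 62.7%, 62.4% and 61.4% in starved and 53.9%, 56.8% and 55.9% in control libraries, with the control libraries below all others. The lowest group mean of the share was 99.9% for Eef1a1, 97.2% for Eif5a and 92.5% for Eif3j1. The longest run of bases shared by transcripts of a pair was 14 to 28 bases, apart from Eif3j1 and Eif3j2, against reads of 150 bases.

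**Figure D4:**
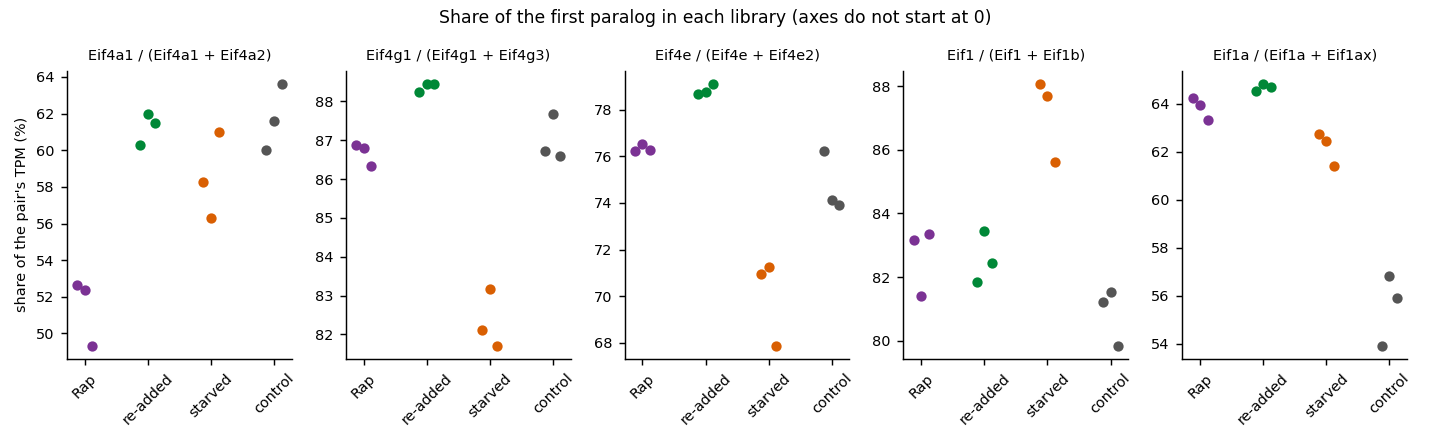
Share (%) of the first gene in the summed TPM of a paralog pair (y axes, which do not start at 0), a point for each of the 12 libraries in the Rap, re-added, starved and control groups. The Eif4a1 share is lowest with Rap (49.3% to 52.6%, against 60.3% to 62.0% in re-added libraries), and the Eif4e and Eif4g1 shares are lowest in starved libraries.

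The 47 genes with Eif symbols, which include Eif5a and Eif5a2, had summed TPM of 7071, 7009 and 6887 in the Rap libraries. Their sums were 8303, 8289 and 8322 in the re-added libraries, 7207, 7025 and 7015 in the starved libraries and 7559, 6850.2 and 7049 in the control libraries. The re-added libraries lay above the 9 others. Over the 8 eEF1 and eEF2 genes, Eef1e1 and Eef2k among them, the sums were 8122, 8485 and 8054 in the Rap libraries. They were 7507, 7330.2 and 7277 in the re-added libraries, 8169, 7964 and 7979 in the starved libraries and 8021, 6958 and 7406 in the control libraries. There the Rap and starved libraries lay above the re-added ones, and the control libraries spanned both. These sums carry no TMM factors, so how the groups stand to each other depends on the scale. On log2(TPM + 1) the median of all tested genes was -0.08 in Rap against re-added, -0.12 in Rap against starved and 0.13 in starved against control. The median of the members in Rap against starved was -0.02 on that scale and 0.10 with TMM factors. Most of the eEF1 and eEF2 sum was Eef1a1 (4646 ± 158 TPM with Rap and 4177 ± 132 TPM on re-addition) and Eef2 (2461 ± 116 TPM and 2093 ± 69.5 TPM in the same groups).

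**Figure D5:**
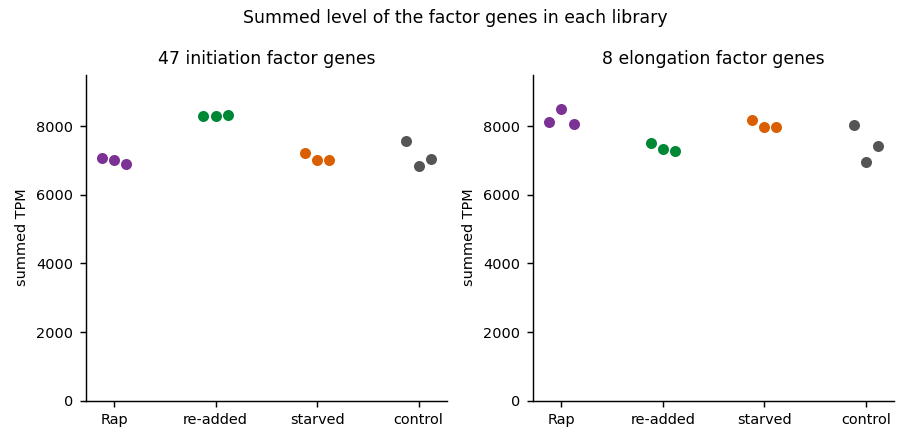
Summed TPM (y axes, from 0, without TMM scaling) of 47 genes with Eif symbols and of 8 eEF1 and eEF2 genes. The panels are titled initiation and elongation factor genes. Each point is a library of the Rap, re-added, starved or control group. The Eif sum, which includes Eif5a and Eif5a2, is highest in the re-added libraries (8289 to 8322). The eEF1 and eEF2 sum there (7277 to 7507) lies below the Rap libraries (8054 to 8485).

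Among 30 other genes of the pathway, from binding proteins of eIF4E to termination and recycling factors, 29 were tested. In starved against control 10 were higher and 4 lower (24.3% of all tested genes higher, 14.6% lower). In re-added against starved 12 were higher and 6 lower (18.4% of all tested genes higher, 18.8% lower). In Rap against re-added 3 were higher and 8 lower (4.55% of all tested genes higher, 3.43% lower). Eif4ebp1, the repressor that sequesters eIF4E, had 19.5, 18.04 and 18.2 CPM with Rap and 29.3, 29.3 and 29.2 CPM on re-addition. It had 66.2, 69.7 and 74.3 CPM in starvation and 28.7, 36.3 and 28.6 CPM in the controls. The starved libraries were above all others and the Rap libraries below all others. Eif4ebp1 had 1.17 ± 0.10 (adjusted p = 4.62e-06) in starved against control, -1.26 ± 0.10 (adjusted p = 1.95e-06) in re-added against starved and -0.66 ± 0.10 (adjusted p = 0.00167) in Rap against re-added. Mknk1, a kinase of eIF4E, stood at 19.3, 18.6 and 19.03 CPM with Rap and 24.03, 22.6 and 21.1 CPM on re-addition. Again the starved level was the highest, with 41.1, 45.9 and 42.5 CPM in starvation and 28.8, 24.01 and 29.7 CPM in the controls. Mknk1 changed by 0.65 ± 0.09 (adjusted p = 0.000233) in starved against control, -0.93 ± 0.09 (adjusted p = 1.36e-05) in re-added against starved and -0.25 ± 0.09 (adjusted p = 0.136) in Rap against re-added. Paip2, an inhibitor of the poly(A)-binding protein, was at 226, 231 and 247 CPM with Rap and 134, 135 and 123 CPM on re-addition. Its starved and control libraries were at 208, 240.1 and 215 CPM in starvation and 249, 232 and 214 CPM in the controls. The re-added libraries alone were low. Paip2 showed -0.07 ± 0.08 (adjusted p = 0.507) in starved against control, -0.76 ± 0.08 (adjusted p = 2.44e-05) in re-added against starved and 0.84 ± 0.08 (adjusted p = 9.33e-05) in Rap against re-added.

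Against the control group, 20 factor genes were higher and 7 lower in re-added cells (24.8% of all tested genes higher, 24.5% lower). The largest were Eif2b3 (0.85 ± 0.08, adjusted p = 2.66e-05), Eif2b4 (0.77 ± 0.06, adjusted p = 6.3e-06) and Eef1e1 (0.76 ± 0.10, adjusted p = 0.000227) among those higher and, among those lower, Eef1a2 (-1.25 ± 0.47, adjusted p = 0.0424) and Eif5a (-0.39 ± 0.09, adjusted p = 0.00473). With the other scalings the split was 16 higher and 13 lower (upper-quartile factors), 18 and 13 (RLE factors) and 19 and 13 (DESeq2), and with the other-cell marker sum as a covariate 12 and 1. Over all tested genes these fits gave 3579 higher and 4900 lower, 3787 and 4612, 3797 and 4537, and 1441 and 1419. With TMM factors and no covariate the calls over all tested genes were 4172 higher and 4132 lower. The 7 lower calls became 4, 3 and 11 without control replicates 1, 2 and 3, and 2 and 1 without re-added replicates 2 and 3. Over all tested genes the lower calls went from 4132 to 2359 and 2154 without re-added replicates 2 and 3. Without control replicates 1, 2 and 3 they were 3401, 3159 and 3677. In Rap against starved cells 19 were higher and 7 lower (20.2% of all tested genes higher, 23.9% lower). The highest of these were Eef1e1 (0.69 ± 0.11, adjusted p = 0.000418) and Eif2b3 (0.66 ± 0.09, adjusted p = 0.000124), and the lowest called was Eif4b (-0.57 ± 0.07, adjusted p = 9.14e-05). Without Rap replicate 3 the 19 became 12, and the higher calls over all tested genes went from 3399 to 2513. These comparisons share libraries with the main ones and are not independent of them.

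The lower calls with Rap differed in how firmly they held. Of the 11 followed singly, Eif4a1, Eif2b4 and Eif3j1 passed in all 23 alternative settings. Eif2s2, Eif2b3, Eif3b, Eif3c, Eif4g1 and Eif5 did so in 18, losing the call without re-added replicate 2, re-added replicate 3 or a Rap replicate. In those fits the lower calls over all tested genes also went down, from 578 to between 245 and 268. Eif3d and Eif4e passed in 19. The highest adjusted p over the alternatives ran from 0.0798 for Eif3d to 0.135 for Eif3b, and the log2 fold changes of these 8 genes from -0.59 to -0.28. On re-addition, the rises of Eif2s1, Eif1ad, Eif3j1 and Eif4a2 passed in 22 of 23 alternatives and were lost only between libraries of like marker level, where their adjusted p was 0.0676, 0.0727, 0.167 and 0.132, the highest over the alternatives. Their log2 values there, with 1 starved library, were 0.46, 0.40, 0.28 and 0.35, beside 0.53, 0.41, 0.38 and 0.48 with all libraries. With the libraries of like marker level, 13 members were lower and 0 higher in Rap against re-added, where 467 of 17669 tested genes were lower and 531 higher. In re-added against starved 14 members were higher and 3 lower, with 1656 of all tested genes higher (3100 with all libraries) and 1903 lower. In starved against control 6 members were higher and 13 lower, with 1651 of 17849 tested genes higher (4101 with all libraries) and 1585 lower. Of the genes without a call in Rap against re-added, Eif2s1 passed in 15 of the 23 alternatives, Eef1e1 in 11, Eif1a in 11, Eif3a in 8 and Eif5a in 6, and in re-added against starved Eif3i passed in 8. In starved against control Eef1e1 passed in 7, Eif4a2 in 6 and Eif2b3 in 5.

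In the coordinates of the count files (GRCm38.p6, from the first to the last exon base over all transcripts) Eif2b3 lies at chr4:117019402-117087306 (plus strand), Eif2b4 at chr5:31187558-31193430 (minus strand), Eif3b at chr5:140419328-140443360 (plus strand), Eif3d at chr15:77958998-77970824 (minus strand), Eif4b at chr15:102073773-102097172 (plus strand), Eif4e at chr3:138526179-138559696 (plus strand), Eif4a1 at chr11:69666936-69672423 (minus strand), Eif5a at chr11:69916714-69921958 (minus strand), Eef1e1 at chr13:38645698-38659028 (minus strand) and Eef2 at chr10:81176631-81182507 (plus strand). Some factor genes lie over or beside another expressed gene (at least 1000 reads over all libraries): Eif2a with Serp1, Eif2d with Rassf5, Eef1b2 with Ndufs1, Eif2b4 with Snx17, Eif3j1 with Spg11, Eif4a2 with Rfc4, Eif4enif1 with Drg1, Eif5b with Rev1 and Eef2kmt with Alg1 on opposite strands, and Eef1akmt2 with Fgfr2 on the same strand. The strand setting of the counting is not given in the sources used here, so reads of such pairs cannot be told apart with certainty. The pseudogenes Eif4a-ps4 and Eif3s6-ps2 share runs of 684 and 168 bases with Eif4a1 and Eif3e, and reads of these pairs could also have been split.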

How the data were processed

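Raw read counts per gene were deposited by the authors for each of the 12 libraries, with Ensembl gene IDs, exon coordinates, strand and exon length per the file headers. A table of TPM deposited by the authors supplied the gene names, and its values equal the counts per exon length rescaled to a fixed sum within 5.0e-05. Per the labels' protocols, RNA was sequenced as paired reads of 150 bases. Per the submitters' processing notes, GRCm38.p6 served as the build and Subread 2.0.1 as well as limma 3.46.0 were run, each in a role that is not stated. Aligner, strand setting and annotation release are not named.

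The count test was edgeR 4.0.16 (R 4.3.3): filterByExpr (minimum count 10, minimum total 15) kept 16844 of 49315 genes and 99.9% of reads, TMM factors scaled the libraries, and 1 quasi-likelihood fit of 4 group means over all 12 libraries, with 8 residual degrees of freedom, gave each contrast, with Benjamini-Hochberg adjustment over all tested genes and a threshold of 0.05. Errors are SD over 3 libraries or SE of a fold change. Alternatives used other scalings, DESeq2 1.42.0, limma 3.58.1 on log2(TPM + 1) and log2(TPM + 0.1), other filters, fewer libraries, a replicate block and a covariate. The routines were tested on simulated counts. Summed marker levels use raw totals. A gene was named with its value in every library if its F test p was among the 2 smallest of its complex, if it was among the 4 largest called rises or falls of a main comparison with at least 5 CPM in either group, or if it belonged to a fixed paralog pair or was Eif4e, Eif4g1, Eif4a1, Eif2s1, Eef1a1 or Eef2, and of the other pathway genes the 2 of smallest p in each main comparison. Some other members are named with fold changes only where a complex is described. The members, gene lists and comparisons were chosen with earlier results of these data known. Library totals were 18555958 to 25631056 reads, so the spread between libraries sets the precision for all but the lowest members.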

Additional observations from a re-analysis of the deposited data

How the results depend on the processing

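Counts of called members moved with several choices. In starved against control the 9 higher became 5 with only the 6 libraries compared, and the 18 lower became 32 with upper-quartile factors, 28 with RLE factors and 29 with DESeq2. The higher calls over all tested genes went from 4101 to 2449 with only the 6 libraries. The lower calls over all tested genes went from 2458 to 3679, 2973 and 3010 with upper-quartile factors, RLE factors and DESeq2. In re-added against starved the 25 higher became 14 between libraries of like marker level, a fit with 1 starved library in which the count over all tested genes also went down, to 1656 from 3100. In Rap against re-added the 2 higher became 4 with DESeq2 and with only the 6 libraries compared. They became 1 without the filter on low counts and with the replicate block, and 0 with limma on TPM in all 3 forms. The higher calls over all tested genes went from 766 to 1099 with DESeq2 and 1829 with only the 6 libraries. They went to 589 without the filter, 621 with the block and 565, 546 and 451 with limma. The 13 lower became 24 with DESeq2, 26, 26 and 25 with limma and 30 with only the 6 libraries. The lower calls over all tested genes went from 578 to 1140 with DESeq2 and 2130 with only the 6 libraries. With limma they were 1381, 1374 and 1116. In re-added against control the 20 higher became 31 with limma at both pseudocounts and 12 with the marker covariate. The higher calls over all tested genes went from 4172 to 5183 and 5137 with limma and 1441 with the covariate. The 7 lower became 13 with upper-quartile factors, RLE factors and DESeq2, 4, 4 and 3 with limma, 4 with only the 6 libraries and 1 with the covariate. The lower calls over all tested genes went from 4132 to 4900, 4612 and 4537 with the first 3 of these. They went to 3355, 3185 and 3861 with limma, 3908 with only the 6 libraries and 1419 with the covariate. In Rap against starved the 19 higher became 12, 12 and 10 with limma and 8 with the covariate. The higher calls over all tested genes went from 3399 to 2373, 2320 and 2159 with limma and 2179 with the covariate. Between libraries of like marker level, with 1 starved library, the median log2 fold change of the members was 0.09, beside 0.10 with all libraries. The causes were not tested. Between libraries of like marker level re-added against control gave no value, since no library pair met that condition. Leaving out each library in turn gave 6 to 9 higher and 14 to 24 lower in starved against control, 19 to 29 and 3 to 4 in re-added against starved, 0 to 4 and 3 to 20 in Rap against re-added, 15 to 23 and 1 to 11 in re-added against control, and 12 to 24 and 5 to 7 in Rap against starved. In Rap against re-added the lower calls over all tested genes ran from 245 to 890 in these fits. They ran from 2057 to 3452 in starved against control and from 2154 to 4685 in re-added against control. The higher calls over all tested genes ran from 2415 to 3514 in re-added against starved and from 2513 to 3938 in Rap against starved. Upper-quartile factors moved the median of all genes in starved against control to -0.13 and that of the members to -0.30, and limma at the pseudocount of 0.1 moved them to 0.15 and -0.03. No named gene changed sign while called. Whether equal replicate numbers pair the libraries was not settled. Deviations of libraries of the same number correlated at -0.23, -0.19 and 0.04 between starved and control and at 0.81, 0.67 and -0.33 between re-added and starved. Between re-added and starved libraries of unlike number the correlations ran from -0.83 to 0.63, so the values cannot tell pairing from other differences between libraries. With the replicate block the members called were 9 higher and 17 lower in starved against control, 25 and 3 in re-added against starved and 1 and 13 in Rap against re-added. Depth limits only the lowest members, such as Eif3j2 with 29 to 78 reads and Eef1a2 with 11 to 103 reads in a library.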

Other observations

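Eif4a-ps4, a pseudogene left out by the naming rule, passed the filter on low counts. It had 5.31, 5.68 and 5.08 CPM with Rap, 7.73, 7.29 and 6.95 CPM on re-addition, 6.48, 6.26 and 5.30 CPM in starvation and 10.7, 10.1 and 7.81 CPM in the controls. In edgeR's test it changed by -0.67 ± 0.15 (SE, log2 scale) in starved against control (adjusted p = 0.00437), and its longest run of bases shared with Eif4a1 was 684 bases. Reads of Eif4a1 counted there, or the reverse, cannot be told apart from transcription of the pseudogene.

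Beside Paip2, the other 2 genes of the pathway list called higher with Rap than in re-added cells were Pdcd4 and Tpt1. Pdcd4, an inhibitor of eIF4A, had 205, 185 and 173 CPM with Rap and 119, 126 and 133 CPM on re-addition, and 0.57 ± 0.09 on the log2 scale (adjusted p = 0.00279) in edgeR's test. Tpt1, a translationally controlled protein, had 1366, 1357 and 1405 CPM with Rap and 951, 971 and 927 CPM on re-addition, and 0.53 ± 0.09 on the log2 scale (adjusted p = 0.00403) in edgeR's test. In both, every Rap library lay above every re-added library, and these 2 groups did not overlap in 38.9% of all tested genes.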
